A study of Mus musculus with 12 samples.

Results

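The genes of creatine cycling were followed in the brown fat of mice kept at 3 housing temperatures. The set holds 7 genes, named by symbol whatever their change: Gatm and Gamt (creatine synthesis), Slc6a8 (creatine uptake), the creatine kinases Ckb, Ckmt1 and Ckmt2, and the phosphatase Alpl. All 7 were found among the 38924 genes of the count table, and 6 of the 7 were among the 14870 genes that passed the filter on low counts. Ckmt1 did not pass. In brief, Gatm, Gamt and Slc6a8 were lower at 6 °C than at 30 °C, Alpl was 4.03-fold higher, and Ckb was lowest at 22 °C. Ckmt2 followed the skeletal muscle genes from library to library and passed no test between temperatures.

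The study sequenced RNA of the brown fat depot between the shoulder blades (interscapular) in C57BL/6J mice of wild type, with 1 library per mouse and 4 mice per temperature. The animals moved to their temperature at 10 weeks of age, stayed there for 4 weeks and were 14 weeks old at the end. The groups lived at 30 °C, which is thermoneutral for a mouse, at 22 °C, which is mild cold, and at 6 °C, which is severe cold. All mice shared the strain and genotype, and no drug is named in the labels. Libraries are named by temperature and mouse. The columns of a pair of 30 °C libraries match no numbered mouse of that group, and they are called mice A and B.

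Brown fat makes heat by burning fuel in its mitochondria. Best known is the route through Ucp1, which lets protons leak back across the inner mitochondrial membrane. Creatine cycling is another proposed route. A creatine kinase spends ATP to make phosphocreatine, and a phosphatase splits phosphocreatine without remaking ATP. The ADP set free by the kinase can then drive further respiration. Creatine itself is made from arginine and glycine by Gatm, which forms guanidinoacetate, and then by Gamt, which adds a methyl group from S-adenosylmethionine. Most cells also import creatine from blood through Slc6a8. Ckb is the brain-type cytosolic creatine kinase, Ckmt1 the ubiquitous and Ckmt2 the sarcomeric mitochondrial creatine kinase. Alpl, tissue-nonspecific alkaline phosphatase, has been described as a phosphocreatine phosphatase of brown fat mitochondria.

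Positions are from the GENCODE annotation of GRCm38. Ckb lies on chromosome 12 from 111669361 to 111672338 on the minus strand, Gamt on chromosome 10 from 80258151 to 80261012 on the minus strand, and Alpl on chromosome 4 from 137741733 to 137796384 on the minus strand. Gatm spans 122594467 to 122611303 on the minus strand of chromosome 2, and Ckmt1 spans 121357714 to 121363737 on the plus strand of the same chromosome. Slc6a8 is X-linked, from 73673150 to 73682502 on the plus strand. Ckmt2 runs from 91853387 to 91876885 on the minus strand of chromosome 13. Of the 50-base stretches of Ckb transcripts, 9.98% also occur in the pseudogene-like entries Ckb-ps1, Ckb-ps2 or Gm12892, so a small part of its reads may have been shared out. Gm12892 itself was at 0.15 CPM or less in every library. In Ckmt2, 5.7% of the exon bases lie under 1700119I11Rik on the opposite strand, and whether reads were counted by strand is not given in the sources used here.

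The promoters of Ckb, Gamt and Alpl are shown because these genes moved in 3 different ways: lowest at the middle temperature, falling with each step, and rising at 6 °C. Alpl is given with both of its start sites in RefSeq. Each is the 250 bases before a RefSeq start site on GRCm38.p6, printed 5′ to 3′ on the gene's own strand. Capitals mark matches to TATAAA (the TATA box), GGGCGG (the GC box) or TGACG (the conserved part of the cAMP response element), on either strand.
Ckb, chr12:111672339-111672588, minus strand: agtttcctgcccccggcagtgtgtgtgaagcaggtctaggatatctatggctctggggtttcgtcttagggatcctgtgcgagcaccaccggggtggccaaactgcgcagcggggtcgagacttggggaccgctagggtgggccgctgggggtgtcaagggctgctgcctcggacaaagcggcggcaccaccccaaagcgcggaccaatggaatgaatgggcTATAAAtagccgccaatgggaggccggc
Gamt, chr10:80261013-80261262, minus strand: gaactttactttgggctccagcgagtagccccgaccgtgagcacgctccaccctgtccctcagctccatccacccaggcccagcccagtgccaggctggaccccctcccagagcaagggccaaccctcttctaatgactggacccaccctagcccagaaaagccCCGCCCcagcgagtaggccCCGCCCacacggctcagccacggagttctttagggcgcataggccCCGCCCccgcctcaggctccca
Alpl, upstream start, chr4:137796385-137796634, minus strand: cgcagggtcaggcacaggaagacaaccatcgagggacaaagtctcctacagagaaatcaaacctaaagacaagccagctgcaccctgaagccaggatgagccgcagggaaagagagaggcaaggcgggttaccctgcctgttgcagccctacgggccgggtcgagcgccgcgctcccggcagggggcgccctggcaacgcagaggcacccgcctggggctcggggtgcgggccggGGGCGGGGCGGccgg
Alpl, downstream start, chr4:137766476-137766725, minus strand: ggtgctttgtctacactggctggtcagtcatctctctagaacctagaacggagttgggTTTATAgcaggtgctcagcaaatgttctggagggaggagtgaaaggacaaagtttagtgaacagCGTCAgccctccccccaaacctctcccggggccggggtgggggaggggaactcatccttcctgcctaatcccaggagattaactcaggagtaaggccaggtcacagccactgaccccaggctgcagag

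The Ckb promoter held a TATAAA that begins 28 bases before the start. The Gamt promoter held 3 matches to GGGCGG, all on the other strand. The upstream Alpl promoter held a pair of GGGCGG matches that overlap each other. The downstream Alpl promoter held TGACG and TATAAA, each on the other strand. Neither the full element TGACGTCA nor AAGGTCA, a site of the oestrogen-related receptors, occurred in these 4 windows. Among 32851 RefSeq mouse promoters of the same length, 12.4% held TATAAA, 32.7% GGGCGG, 17.8% TGACG, 1.55% TGACGTCA and 4.08% AAGGTCA. The GC content was 62.8% for Ckb, 66.8% for Gamt, 68.4% for the upstream and 56% for the downstream Alpl promoter, against a median of 52.4%. These matches describe letters in the windows and were not tied to the expression values.

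Levels are given in CPM, a gene's counts scaled to a common library total, after TMM scaling, which corrects library totals for differences in RNA composition. Changes are log2 fold changes from edgeR's quasi-likelihood test with their standard errors (SE). A gene is said to have risen or fallen where the p-value adjusted by Benjamini-Hochberg over all 14870 genes was under 0.05. Total counts ran from 18290162 to 32513051 per library, apart from 86438386 in 22 °C mouse 3. Brown adipocyte markers were present throughout, with none of the 11 at 0 in any library. Ucp1 averaged 1468 CPM at 30 °C, 3371 CPM at 22 °C and 10432 CPM at 6 °C. The temperature effect on the tissue was broad: 56.8% of all tested genes passed between 6 and 30 °C, 44.6% between 22 and 30 °C and 34.2% between 6 and 22 °C.

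Against that background, 5 of the 6 tested members passed between 6 and 30 °C, where Alpl rose and Gatm, Gamt, Slc6a8 and Ckb fell; of all tested genes 25.3% rose and 31.5% fell. Between 22 and 30 °C 4 of 6 passed, and all of these fell, as did 22.8% of all tested genes. Between 6 and 22 °C 3 of 6 passed, with Ckb and Alpl higher and Gamt lower, where 16.9% of all tested genes rose and 17.4% fell. The median log2 fold change of the tested members was -1.10, -0.68 and -0.38 in these comparisons, beside -0.11, -0.02 and -0.03 for all tested genes. With backgrounds this high, the counts of members alone are no result about them.

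**Figure D1:**
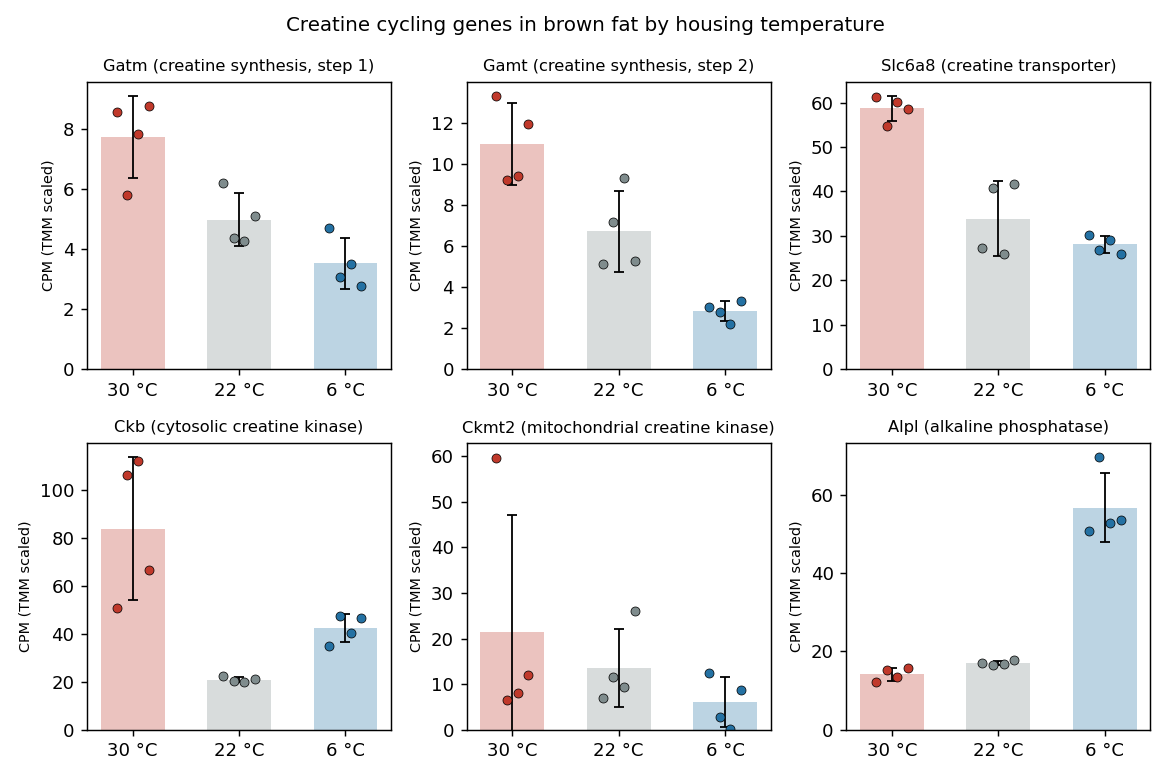
TMM-scaled CPM of the 6 tested members at 30, 22 and 6 °C; points are single mice, bars the mean of 4 mice and error bars the SD. Gatm, Gamt and Slc6a8 step down from 30 °C, Ckb is lowest at 22 °C (20.8 CPM), Alpl is high at 6 °C (56.8 CPM), and the Ckmt2 groups overlap.

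Gatm, the enzyme that commits arginine and glycine to creatine synthesis, was measured at 8.57, 5.78, 7.85 and 8.75 CPM in 30 °C mice 1, 2, A and B. At 22 °C the values were 6.18, 4.35, 4.28 and 5.10 CPM, and at 6 °C 4.71, 3.07, 3.50 and 2.78 CPM (mice 1 to 4). Each 6 °C library was below each 30 °C library, while the 22 °C range overlapped both. Gatm fell by 1.14 on the log2 scale from 30 to 6 °C (SE 0.19, edgeR adjusted p = 2.9e-04). From 30 to 22 °C it fell by 0.64 (SE 0.19, edgeR adjusted p = 0.0148), and the change from 22 to 6 °C, -0.49 (SE 0.20), missed the threshold at an edgeR adjusted p of 0.0668. The call between 22 and 30 °C was lost without mice A and B, with a log2 fold change of -0.53 and an edgeR adjusted p of 0.118. The change from 22 to 6 °C passed without 6 °C mouse 1 (-0.66, edgeR adjusted p = 0.0219).

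Gamt, which completes creatine by methylation, had the largest fall of the tested members between 30 and 6 °C. It was at 13.3, 9.20, 9.40 and 11.9 CPM at 30 °C, at 5.09, 7.15, 9.33 and 5.27 CPM at 22 °C, and at 3.00, 2.77, 2.19 and 3.30 CPM at 6 °C, in the same order of mice. All 6 °C libraries were below all others, and only 22 °C mouse 3 reached into the 30 °C range. Gamt fell by 1.96 on the log2 scale from 30 to 6 °C (SE 0.21, edgeR adjusted p = 7.9e-06). The fall was 0.69 from 30 to 22 °C (SE 0.20, edgeR adjusted p = 0.0135). From 22 to 6 °C Gamt fell by 1.27 (SE 0.21, edgeR adjusted p = 8.0e-04). The difference between the steps was -0.58 with an edgeR adjusted p of 0.244, so unequal steps were not shown.

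Slc6a8, the sodium-dependent creatine importer, was near 60 CPM in every 30 °C mouse, at 61.2, 54.8, 60.2 and 58.6 CPM. The 22 °C mice fell into a lower pair and a higher pair, with 27.2 and 25.8 CPM in mice 1 and 3 and 40.9 and 41.6 CPM in mice 2 and 4. The 6 °C mice were at 30.3, 26.9, 29.1 and 26.0 CPM. All libraries of both colder groups lay below all 30 °C libraries, and the colder groups overlapped each other. Slc6a8 fell by 0.80 on the log2 scale from 30 to 22 °C (SE 0.14, edgeR adjusted p = 6.5e-04) and by 1.07 from 30 to 6 °C (SE 0.14, edgeR adjusted p = 4.4e-05). Between 22 and 6 °C the difference was -0.27 (SE 0.14, edgeR adjusted p = 0.165). Without 22 °C mouse 3 that difference was -0.37 and passed (edgeR adjusted p = 0.044).

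Synthesis and uptake genes thus shared the direction between 30 and 6 °C, with ranges that did not overlap for Gatm, Gamt and Slc6a8. Ranges did not overlap for 51.5% of all tested genes in that comparison. Markers of fibroblasts and preadipocytes also fell: the summed level of the 6 listed genes was 877 to 1527 CPM at 30 °C, 447 to 628 CPM at 22 °C and 294 to 346 CPM at 6 °C, and 6 of 6 fell between 30 and 6 °C. Markers of pericytes and smooth muscle summed to 747 to 956 CPM at 30 °C, 560 to 639 CPM at 22 °C and 541 to 603 CPM at 6 °C, and 6 of 6 fell between 30 and 6 °C. Of the macrophage markers 5 of 6 fell, and of the endothelial markers 4 of 6. The part of these cell types in the fall of Gatm, Gamt and Slc6a8 was not tested. In bulk tissue, fewer cells of a type and less RNA per cell cannot be told apart.

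**Figure D2:**
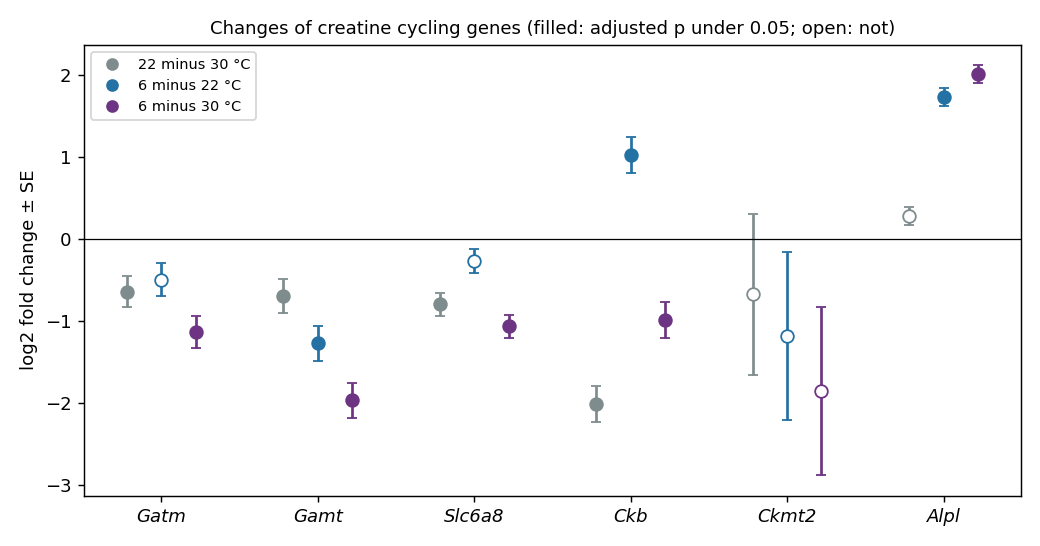
Log2 fold change with its SE for the 6 tested members in each pairwise comparison; filled symbols have an edgeR adjusted p under 0.05. Ckb is the member that changed sign, from -2.01 between 22 and 30 °C to 1.03 between 6 and 22 °C, and Alpl reaches 2.01 between 6 and 30 °C.

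Ckb, the cytosolic kinase, was lowest at 22 °C and intermediate at 6 °C. The 30 °C mice were at 50.7, 106, 112 and 66.6 CPM, a spread of 30.0 CPM (SD) around a mean of 83.9. The 22 °C mice sat close together at 22.3, 20.2, 19.8 and 20.9 CPM, and the 6 °C mice were at 35.0, 47.6, 40.1 and 46.6 CPM. The groups did not overlap in any pair, which for all tested genes held in 38.9% between 22 and 30 °C and 34.9% between 6 and 22 °C. Ckb was 4.03-fold lower at 22 than at 30 °C, a fall of 2.01 on the log2 scale (SE 0.22, edgeR adjusted p = 5.7e-05). It was then 2.04-fold higher at 6 than at 22 °C (log2 fold change 1.03, SE 0.22, edgeR adjusted p = 0.00455). At 6 °C it remained below 30 °C by a log2 fold change of -0.99 (SE 0.22, edgeR adjusted p = 0.00235).

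The steps of Ckb differed from each other by 3.04 on the log2 scale (SE 0.40, edgeR adjusted p = 5.7e-04). Called steps of this kind, lower at 22 than at 30 °C and higher again at 6 than at 22 °C, occurred in 763 of the tested genes, or 5.13%. Without mice A and B the fall from 30 to 22 °C was -1.92 (edgeR adjusted p = 5.9e-04). Macrophage markers followed a similar course: the summed level of the 6 listed genes was 226 to 620 CPM at 30 °C, 68.6 to 99.1 CPM at 22 °C and 106 to 188 CPM at 6 °C. In that list 6 of 6 genes were lower at 22 than at 30 °C and 1 of 6 was higher at 6 than at 22 °C. The difference of the steps was positive and passed in 6 of 6, as it did in 14.3% of all tested genes. Within 30 °C, mice 1, 2, A and B had 242, 226, 520 and 620 CPM of the macrophage markers, beside 50.7, 106, 112 and 66.6 CPM of Ckb. Endothelial markers summed to 1052 to 1266 CPM at 30 °C, 718 to 841 CPM at 22 °C and 795 to 881 CPM at 6 °C. Of these 6 genes, 5 were lower at 22 than at 30 °C, and 2 were higher and 1 lower at 6 than at 22 °C. Their difference of the steps was positive and passed in 4 of 6. The part of either cell type in the Ckb levels was not tested.

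Ckmt1, the ubiquitous mitochondrial kinase, was close to absent. Its counts were 1, 1, 0 and 2 at 30 °C, 0, 1, 11 and 0 at 22 °C, and 0, 0, 0 and 2 at 6 °C. The 11 counts were in the deepest library, where they amount to 0.13 CPM. In the libraries with 0 counts, that count allows a level of up to 0.0898 CPM in 30 °C mouse A and up to 0.148 CPM in 22 °C mouse 1 (3 counts), which covers counting error only. No comparison was made for Ckmt1.

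Ckmt2, the mitochondrial kinase of striated muscle, was set beside skeletal muscle genes, because muscle lies next to the interscapular depot. Its levels were 59.7, 6.43, 8.0 and 11.9 CPM at 30 °C, 6.92, 11.6, 9.44 and 26.1 CPM at 22 °C, and 12.4, 2.87, 0.177 and 8.70 CPM at 6 °C. The groups overlapped in each pair, and 30 °C mouse 1 stood far above the rest. Myh4, the fast muscle myosin IIb, was at 1173, 220, 192 and 347 CPM at 30 °C, 242, 211, 277 and 1016 CPM at 22 °C, and 483, 85.8, 1.34 and 348 CPM at 6 °C. Acta1, skeletal muscle actin, was at 863, 153, 178 and 251 CPM, then 146, 160, 193 and 551 CPM, then 313, 45.7, 1.80 and 226 CPM. Ckm, the cytosolic muscle kinase, was at 406, 70.0, 84.7 and 126 CPM, then 69.6, 86.9, 78.7 and 282 CPM, then 137, 25.3, 0.283 and 100.5 CPM. The same libraries were high in all 4 genes (30 °C mouse 1 and 22 °C mouse 4), and the same library was lowest in all 4 (6 °C mouse 3).

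Over the 12 libraries the log2 CPM of Ckmt2 and the mean log2 CPM of 15 fast muscle markers had a Pearson r of 0.988 (permutation p = 1e-05, two-sided, the smallest that 100000 resamples can give). Spearman's rho was 0.937 (permutation p = 5e-05). Without 30 °C mouse 1 and 6 °C mouse 3, the libraries farthest from the median marker level, r was 0.964 (permutation p = 2.6e-04). With each temperature's mean subtracted r was 0.984, and with Myh4 and Acta1 as the only markers it was 0.979. These were among 10 relations, whose largest p adjusted by Benjamini-Hochberg was 9.5e-04. The points share the library, its depth and its scaling, and total-count scaling gave r = 0.989.

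In 11 of the 12 libraries there were 8.66 to 14.7 counts of Ckmt2 per 100 of Ckm. In 6 °C mouse 3 there were 5 counts of Ckmt2 and 8 of Ckm, a ratio of 62.5 per 100 with an exact 95% interval from 16.1 to 217 for counting error. That library held 39.2 CPM of the summed 15 fast muscle markers, against 4699 CPM in 30 °C mouse 1. In it Ckmt2 was at 0.177 CPM, beside 40.1 CPM of Ckb. Slow and cardiac muscle markers summed to 274 CPM in 30 °C mouse 1, which had the highest ratio to Ckm of those 11 libraries, and to 17.9 to 25.9 CPM in the other 30 °C mice; Myl7, a marker of heart atrium, was at 0 in all libraries.

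Between temperatures Ckmt2 gave log2 fold changes of -0.67 (SE 0.98, edgeR adjusted p = 0.613) for 22 against 30 °C and -1.18 (SE 1.02, edgeR adjusted p = 0.401) for 6 against 22 °C. For 6 against 30 °C the value was -1.86 (SE 1.02, edgeR adjusted p = 0.147). With the muscle marker level as a covariate, which was an alternative listed for this check, the value for 6 against 30 °C was -0.18 (SE 0.25, edgeR adjusted p = 0.566). That for 22 against 30 °C was 0.02 (SE 0.19, edgeR adjusted p = 0.945). Without 30 °C mouse 1 alone, the value for 22 against 30 °C turned to 0.62 (edgeR adjusted p = 0.614). Under the 28 alternatives the values stayed negative for 6 against 30 °C (-2.51 to -0.15) and for 6 against 22 °C (-2.19 to -0.20). None of these passed, so no change with temperature is read for Ckmt2.

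**Figure D3:**
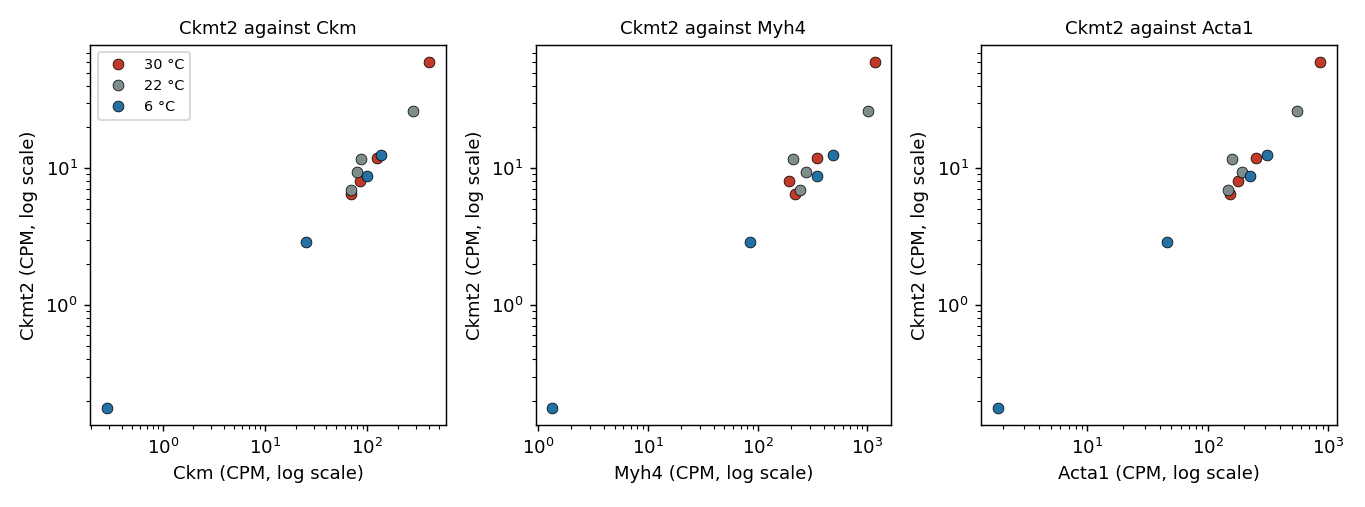
Ckmt2 (CPM, log axis) against the muscle genes Ckm, Myh4 and Acta1 (CPM, log axes), 1 point per library coloured by temperature. Ckmt2 tends to be higher where the muscle genes are higher, from 6 °C mouse 3 (0.177 CPM of Ckmt2) to 30 °C mouse 1 (59.7 CPM). Relative to Ckm, 6 °C mouse 3 stands apart, with 5 counts of Ckmt2 to 8 of Ckm, or 62.5 per 100. The other libraries have 8.66 to 14.7 per 100.

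To compare kinases with each other, CPM was divided by exon length in kilobases. Of the summed level of Ckb, Ckm, Ckmt1 and Ckmt2 on this scale, Ckb made up 8.89, 56.4, 52.9 and 31.0% at 30 °C, 21.2, 15.6, 17.0 and 5.94% at 22 °C, and 17.9, 60.7, 98.5 and 28.5% at 6 °C. The share ranged widely within a temperature and was lowest in 22 °C mouse 4 and 30 °C mouse 1, the libraries with the highest muscle gene levels. In 6 °C mouse 3, where muscle genes were nearly absent, Ckm made up 0.690% and Ckmt2 0.845%. Ckmt1 made up 0.129% or less in every library.

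**Figure D4:**
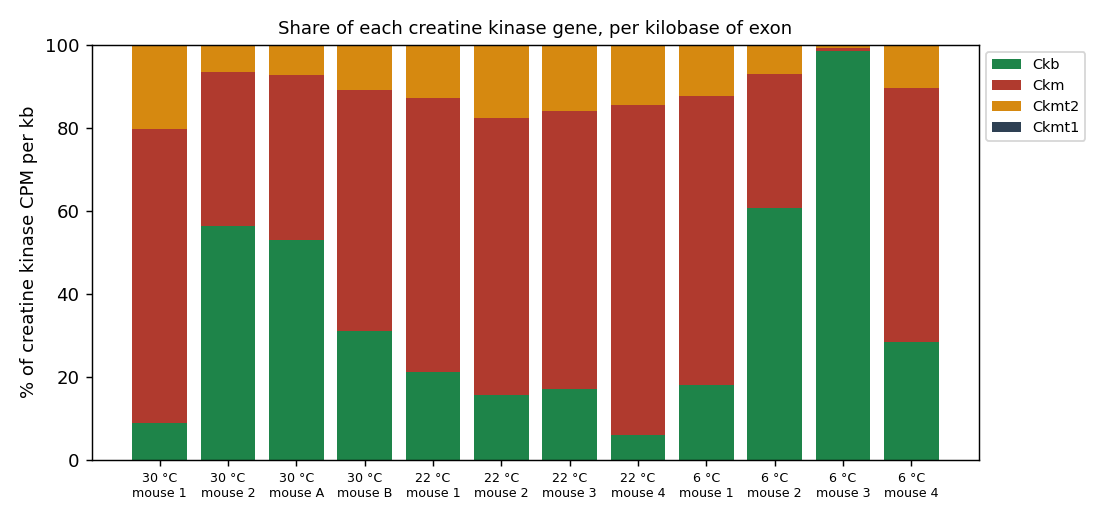
Share (%) of each creatine kinase gene in the summed CPM per kilobase of exon, 1 stacked bar per library. Ckb takes 98.5% in 6 °C mouse 3 and is also the largest part in 6 °C mouse 2 and in 30 °C mice 2 and A. Ckm is the largest part in the remaining libraries, among them every 22 °C library (65.9 to 79.6%). Ckmt1 is too low to be seen.

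Alpl, the phosphatase, rose almost entirely between 22 and 6 °C. It was at 12.1, 15.2, 13.5 and 15.7 CPM at 30 °C and at 17.1, 16.6, 16.8 and 17.9 CPM at 22 °C. At 6 °C it was at 50.8, 69.8, 52.9 and 53.6 CPM. Each group lay wholly above the next warmer one, with mouse 2 the highest at 6 °C. Of all tested genes, 38.9% had ranges that did not overlap between 22 and 30 °C, and 34.9% between 6 and 22 °C. Alpl rose by 1.73 on the log2 scale from 22 to 6 °C (SE 0.11, edgeR adjusted p = 1.7e-06) and by 2.01 from 30 to 6 °C (SE 0.11, edgeR adjusted p = 5.3e-08). The difference between 22 and 30 °C was 0.28 (SE 0.11) and missed the threshold at an edgeR adjusted p of 0.0542. It passed under 5 of 28 alternatives, among them without 30 °C mouse B (0.33, edgeR adjusted p = 0.042) and without 6 °C mouse 2 (0.28, edgeR adjusted p = 0.0193). Under total-count scaling it was 0.01 (edgeR adjusted p = 0.935). The steps differed by 1.45 (SE 0.19, edgeR adjusted p = 4.0e-04), in a contrast where 29.3% of all tested genes passed and 2 of the 6 tested members, Ckb and Alpl, did.

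Per kilobase of exon, the order of the members by mean level differed between temperatures. At 30 °C it ran Ckb (29.0 CPM per kilobase), Ckmt2 (14.5), Slc6a8 (11.3), Gamt (7.59), Alpl (3.50), Gatm (2.58) and Ckmt1 (0.0137), and only the ranges of Ckb with Ckmt2 and of Ckmt2 with Slc6a8 overlapped among neighbours. The 30 °C range of Ckmt2, 4.33 to 40.2, also took in that of Gamt, 6.37 to 9.22. At 22 °C Ckmt2 (9.10), Ckb (7.19), Slc6a8 (6.50), Gamt (4.65) and Alpl (4.24) overlapped from neighbour to neighbour, and Gatm (1.66) and then Ckmt1 lay below. At 6 °C Ckb (14.6) and Alpl (14.1) overlapped at the top, above Slc6a8 (5.38), Ckmt2 (4.06), Gamt (1.95) and Gatm (1.17), which overlapped from neighbour to neighbour. The Ckmt2 means leaned on the libraries highest in muscle genes, so its place in the order is not read as an effect of temperature. It was at 40.2 CPM per kilobase in 30 °C mouse 1, against 4.33 to 8.03 in the other 30 °C mice. In 22 °C mouse 4 it was at 17.6, against 4.66 to 7.82 in the other 22 °C mice. Ucp1 stood at 898, 2060 and 6377 CPM per kilobase at 30, 22 and 6 °C, far above every member.

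Genes that feed or surround the cycle were taken from 5 lists. Of all tested genes, 25.3% rose and 31.5% fell between 30 and 6 °C. Between 22 and 30 °C these shares were 21.8% and 22.8%, and between 6 and 22 °C 16.9% and 17.4%. With lists this short, the counts of genes that passed are no result about the lists. Among 9 tested genes that make or use arginine, glycine or methyl groups, 1 rose and 4 fell between 30 and 6 °C. Mat2a, the main enzyme making S-adenosylmethionine outside liver, averaged 226 CPM at 30 °C, 149 CPM at 22 °C and 140 CPM at 6 °C, and fell by 0.69 on the log2 scale between 30 and 6 °C (SE 0.16, edgeR adjusted p = 0.00328). Oat, ornithine aminotransferase, fell by 0.64 (SE 0.06, edgeR adjusted p = 3.0e-06) and Shmt1, which interconverts serine and glycine, by 1.09 (SE 0.11, edgeR adjusted p = 3.6e-06). Mat2b, the regulatory partner of Mat2a, had a log2 fold change of 0.12 (edgeR adjusted p = 0.214). Shmt2, the mitochondrial counterpart of Shmt1, fell by 0.39 (edgeR adjusted p = 0.00111). Arginase Arg1 rose by 2.48 (SE 0.76, edgeR adjusted p = 0.0147) from a mean of 0.268 to 1.57 CPM. Of the 6 °C mice, mouse 1 had 4.34 CPM of Arg1 and the others 0.566 to 0.734 CPM, and without that mouse the value was 1.20 (edgeR adjusted p = 0.0683). The list had 1 gene higher and 4 lower between 22 and 30 °C, and 1 higher and 2 lower between 6 and 22 °C. Its median log2 fold change between 30 and 6 °C was -0.0025.

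Of 8 other kinases that move phosphate between nucleotides or creatine, 3 rose and none fell between 30 and 6 °C. Among all tested genes 25.3% rose and 31.5% fell in that comparison. Ak4, an adenylate kinase of the mitochondrial matrix, had 2.42 to 3.52 CPM at 30 °C, 1.85 to 3.16 CPM at 22 °C and 14.5 to 20.3 CPM at 6 °C. Like Alpl, it rose between 22 and 6 °C, by 2.79 on the log2 scale (SE 0.20, edgeR adjusted p = 4.3e-06), and gave -0.08 between 22 and 30 °C (edgeR adjusted p = 0.786). Nme1, a nucleoside diphosphate kinase, rose by 0.69 between 30 and 6 °C (SE 0.14, edgeR adjusted p = 8.4e-04). Ak1 (-0.38, edgeR adjusted p = 0.0873), Ak3 (0.04, edgeR adjusted p = 0.762) and Ckm (-1.39, SE 1.15, edgeR adjusted p = 0.324) did not pass. Between 22 and 30 °C 3 rose and none fell, and between 6 and 22 °C Ak4 rose and Nme2 fell (-0.47, edgeR adjusted p = 0.0292). Nme2 shares 48.9% of its exon bases with Gm20390 on the same strand, so its counts are uncertain, and this fall was lost under 9 of 28 alternatives. Nme1 shares 12.5% of its exon bases with Gm20390. Of the 50-base stretches of Ak4 transcripts, 10.2% also occur in Ak3l2-ps. Ak4, Nme1, Nme2, Arg1 and Shmt2 were outside the rule for named genes and were chosen after their values were seen.

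The 6 carriers and channels that pass ADP, ATP and phosphate through the mitochondrial membranes showed 4 rises and no fall between 30 and 6 °C, and likewise between 22 and 30 °C. Of all tested genes, 25.3% and 21.8% rose in these comparisons. The phosphate carrier Slc25a3 averaged 273, 415 and 459 CPM at 30, 22 and 6 °C and rose by 0.75 on the log2 scale between 30 and 6 °C (SE 0.07, edgeR adjusted p = 2.6e-06). Vdac1, an outer membrane channel, rose by 0.51 (SE 0.09, edgeR adjusted p = 4.1e-04). Slc25a5, an ADP/ATP carrier, rose by 0.43 (edgeR adjusted p = 0.00236) and Vdac2 by 0.28 (edgeR adjusted p = 0.011), but under total-count scaling these were 0.11 (edgeR adjusted p = 0.285) and -0.04 (edgeR adjusted p = 0.607). Between 22 and 30 °C Vdac2 rose by 0.33 (edgeR adjusted p = 0.00561), which was 0.07 under total-count scaling (edgeR adjusted p = 0.405) and missed the threshold with the mouse number as a block (edgeR adjusted p = 0.0729). Of the Slc25a5 transcript stretches of 50 bases, 33.8% also occur in other entries, mostly predicted genes. The carrier Slc25a4 gave -0.17 (edgeR adjusted p = 0.213) and Vdac3 -0.02 (edgeR adjusted p = 0.856). Between 6 and 22 °C none rose, and Slc25a4 fell by 0.34 (SE 0.11, edgeR adjusted p = 0.0327), a call lost under 8 of 28 alternatives, among them without 22 °C mouse 2 (-0.29, edgeR adjusted p = 0.0896) and with the muscle covariate (-0.28, edgeR adjusted p = 0.129).

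Of 8 listed phosphatase and pyrophosphate genes, 5 were tested. Between 30 and 6 °C 2 of these 5 rose and none fell, where 25.3% of all tested genes rose and 31.5% fell. The other alkaline phosphatases, Alpi, Akp3 and Alppl2, were at 0.0402 CPM or less in every library. Phospho1, a phosphatase of phosphoethanolamine and phosphocholine, was at 15.9 to 21.7 CPM at 30 °C, 21.5 to 28.9 CPM at 22 °C and 56.2 to 86.9 CPM at 6 °C. It rose by 1.92 on the log2 scale between 30 and 6 °C (SE 0.15, edgeR adjusted p = 6.6e-07) and by 1.58 between 22 and 6 °C (SE 0.15, edgeR adjusted p = 1.7e-05). Its exons lie for 84.2% of their length under Abi3 on the opposite strand and for 89.6% under Zfp652 on the same strand, so its counts are uncertain. Between 30 and 6 °C Abi3 gave 0.34 (edgeR adjusted p = 0.412) and Zfp652 -0.05 (edgeR adjusted p = 0.65). Ank, which carries pyrophosphate out of cells, averaged 120 CPM at 30 °C and 234 CPM at 6 °C (log2 fold change 0.96, SE 0.19, edgeR adjusted p = 0.00127). The inorganic pyrophosphatases Ppa1 and Ppa2 rose between 30 and 22 °C by 0.54 (SE 0.13, edgeR adjusted p = 0.00455) and 0.46 (SE 0.10, edgeR adjusted p = 0.00199). The rise of Ppa1 was lost under total-count scaling (0.28, edgeR adjusted p = 0.105) and with the mouse number as a block (0.44, edgeR adjusted p = 0.146). Both fell again between 22 and 6 °C, by 0.65 (edgeR adjusted p = 0.00235) and 0.34 (edgeR adjusted p = 0.0174). The fall of Ppa2 was lost without 22 °C mouse 2 (-0.28, edgeR adjusted p = 0.0548), 6 °C mouse 1 (-0.31, edgeR adjusted p = 0.0511) or 6 °C mouse 4 (-0.30, edgeR adjusted p = 0.0539).

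**Figure D5:**
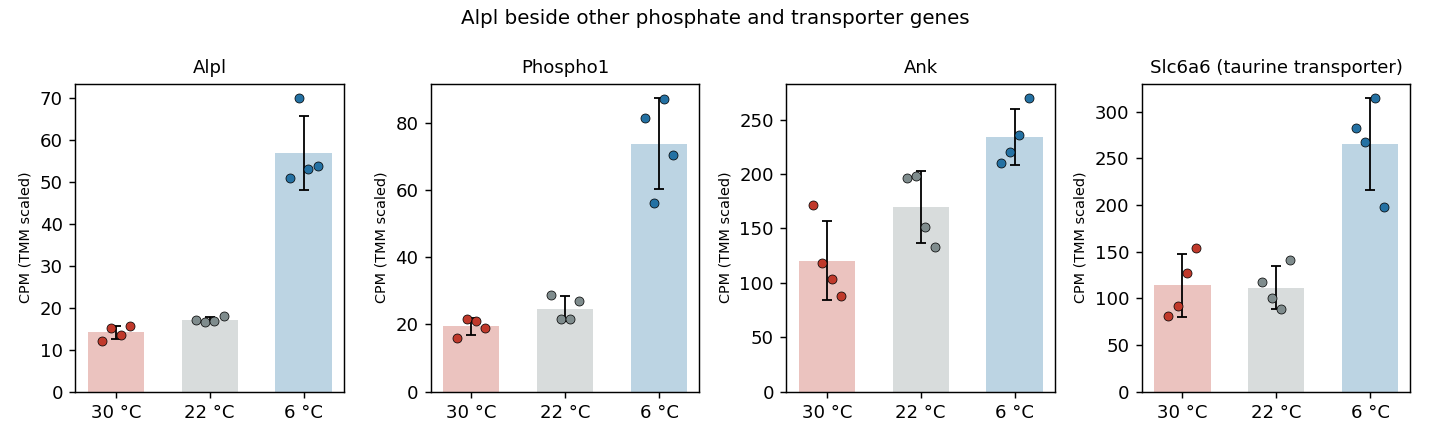
TMM-scaled CPM of Alpl, Phospho1, Ank and the taurine transporter Slc6a6 at 30, 22 and 6 °C; points are single mice, bars the mean of 4 mice and error bars the SD. Alpl, Phospho1 and Slc6a6 stay low at 30 and 22 °C and are high at 6 °C, while Ank is 120 CPM at 30 °C, 169 CPM at 22 °C and 234 CPM at 6 °C.

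Of 5 transporters related to Slc6a8, 1 rose and 2 fell between 30 and 6 °C, where 25.3% of all tested genes rose and 31.5% fell. Slc6a6, the taurine transporter, averaged 114 CPM at 30 °C, 112 CPM at 22 °C and 265 CPM at 6 °C, and rose by 1.22 on the log2 scale between 30 and 6 °C (SE 0.22, edgeR adjusted p = 5.8e-04). Slc6a12, which carries betaine and GABA, fell by 2.16 (SE 0.38, edgeR adjusted p = 3.9e-04) from a mean of 1.20 to 0.264 CPM. Slc6a13, a GABA transporter, fell by 1.57 (SE 0.53, edgeR adjusted p = 0.0227) from 2.31 to 0.765 CPM, a call lost under 8 of 28 alternatives, among them without 30 °C mouse 1 (-1.46, edgeR adjusted p = 0.0507). The glycine transporter Slc6a9 gave -0.29 (edgeR adjusted p = 0.221), and Slc16a12, described as a creatine exporter, -0.04 (SE 0.57, edgeR adjusted p = 0.941) at a mean under 1 CPM. Between 22 and 30 °C, where Slc6a8 fell, the log2 fold changes of these 5 ran from -0.30 to -0.03, with edgeR adjusted p-values of 0.696 or more. Whether any of them differed from Slc6a8 in its change was not tested.

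For each tested member, the 3 genes most like it were found by Pearson r of log2 CPM over the 12 libraries, among the 9902 tested genes that averaged 5 CPM or more and are no clone or predicted entry. Ckb was closest to Plxnd1 (0.960), Sept11 (0.952) and Itpkb (0.944). Plxnd1 averaged 200 CPM at 30 °C, 113 CPM at 22 °C and 144 CPM at 6 °C. As Plxnd1 was picked for its likeness to Ckb, its low at 22 °C is no separate result. Ckmt2 was closest to Hfe2 (0.993), Hrc (0.991) and Myoz1 (0.990). For Alpl these were Adcy3 (0.986), Bsg (0.986) and Canx (0.979). Adcy3 averaged 49.5, 76.4 and 349 CPM at 30, 22 and 6 °C. Slc6a8 was closest to Pck2 (0.982), Dll1 (0.962) and Tbx2 (0.962), and Pck2 averaged 45.7, 21.5 and 17.6 CPM. Gamt was closest to Il17re (0.976), Angptl1 (0.973) and Esyt1 (0.972), and Gatm to Maml2 (0.968), Manba (0.952) and Prkd3 (0.948). No gene stood in more than 1 of these 6 lists. The values describe these libraries, which share temperature, depth and scaling, and high likeness is common where so many genes changed with temperature.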

How the data were processed

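Total RNA of interscapular brown fat was sequenced, and the authors deposited raw read counts per Ensembl mouse gene, without normalisation (per the file headers and values). Per the submitters' processing notes, the tools were FastQC 0.10.1, STAR 2.4.2a and edgeR 3.14.0, with builds given as GRCm38 and mm10 and no role stated. How reads were counted, with which annotation and strand setting, is not given in the sources used here.

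From these counts, genes were filtered with filterByExpr and scaled by TMM, and the 12 libraries were fitted together by temperature with edgeR 4.0.16 in R 4.3.3 (glmQLFit with robust estimation). The contrasts, tested two-sided with glmQLFTest, were each pair of temperatures and the difference of the steps, 6 minus 22 °C less 22 minus 30 °C. Adjustment was by Benjamini-Hochberg over the 14870 genes tested. Standard errors are the log2 fold change over the square root of F. CPM values carry the SD of 4 mice. The p-values measure the spread between these mice.

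Of the table's columns, 10 match a numbered mouse and 2 only the 30 °C group. GENCODE matched 96.6% of identifiers. At 18290162 counts, the smallest total, 1 CPM equals 16.8 counts after scaling. No replicate pair agreed within counting noise (18 pairs, lowest chi-square ratio to its degrees of freedom 21.6). Promoters came from RefSeq, which matched 6 of 7 members.

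The members, lists and the rule for named genes (all members, each list's genes up to 6 or otherwise the 4 most abundant, and the 3 genes most like each member) were chosen with earlier results of these data known. Alternatives covered scaling, filters, DESeq2 1.42.0, limma voom (limma 3.58.1), the muscle level as a covariate, the mouse number as a block, an adjusted p under 0.01 and leaving out libraries. The fit was also run on simulated counts in which few genes changed, unlike the 56.8% that passed here between 6 and 30 °C. That run therefore does not bear on the scaling. Results of a gene withheld for evaluation are not reported here.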

Additional observations from a re-analysis of the deposited data

Results flagged for a closer look

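In 13 of 96 groups of 4 mice, the highest or lowest library stood apart by Dixon's 95% criterion. Chance would give about 4.8 if the groups were independent. They were not, since muscle genes were flagged together in the same libraries, so the excess is not read as a result. In 30 °C mouse 1, Ckmt2 was at 59.7 CPM, Ckm at 406 CPM, Myh4 at 1173 CPM and Acta1 at 863 CPM, all above the other 30 °C mice. In 22 °C mouse 4, Ckm was at 282 CPM, Myh4 at 1016 CPM and Acta1 at 551 CPM, all above the other 22 °C mice. Alpl in 6 °C mouse 2 was at 69.8 CPM, above the other 6 °C mice at 50.8 to 53.6 CPM. In 30 °C mouse B, Mat2b was low at 65.3 CPM and Vdac3 low at 17.9 CPM. Slc25a5 was low in 6 °C mouse 1 at 114 CPM. Vdac2 was high in 22 °C mouse 2 at 261 CPM. Slc6a9 was high in 6 °C mouse 3 at 1.38 CPM.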

How the results depend on the processing

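Of 666 values of the members under alternatives, 644 kept their direction and side of the threshold, 5 lost a call, 10 gained one and 7 changed sign. Each call of Ckb, and the calls of Alpl, Gamt, Gatm and Slc6a8 between 6 and 30 °C, held in every alternative run. The mouse number as a replicate block also leaves out mice A and B: between 22 and 30 °C 2 members and 3245 genes passed with the block, 3 members and 4454 genes without those mice and no block, and 4 members and 6634 genes with all 12 libraries. With the block Gatm (-0.41, edgeR adjusted p = 0.153) and Gamt (-0.79, edgeR adjusted p = 0.116) did not pass there, and the Gatm difference of the steps turned to -0.0763. Deviations from the group mean correlated at -0.04 to 0.35 between same-numbered libraries, with 4 of 8 pairs over 0.1, and 2 of 10 libraries correlated best with their own number. The numbered 30 °C libraries are a single pair, whose deviations from their mean mirror each other, so these values cannot decide on pairing. Each library is of a different mouse, and the numbers were not taken to pair the mice. At an adjusted p under 0.01, 2 members passed between 22 and 30 °C, and 2803 genes passed between 6 and 22 °C in place of 5091. For Ckmt2, the difference of the steps was 0.13 without mice A and B, and 22 against 30 °C gave 0.0202 with the muscle covariate and 0.62 without 30 °C mouse 1 and 6 °C mouse 3 (chosen after seeing the data). Leaving out each library gave ranges of -1.21 to 0.62 for Ckmt2 between 22 and 30 °C, -1.80 to 0.56 for its difference of the steps, and -0.0245 to 0.38 for that of Gatm. Under total-count scaling Vdac2 between 6 and 30 °C was -0.0378, the median of all genes moved by -0.316 and -0.259 (6 and 22 against 30 °C), and 1940 genes were higher and 7886 lower at 6 °C, 1420 and 6223 at 22 °C, against 3767 and 4677, and 3248 and 3386. The cause of these changes was not tested. Depth limits Ckmt1, with 4, 12 and 2 counts in all at 30, 22 and 6 °C, and Ckmt2 in 6 °C mouse 3, with 5 counts.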
